A study of Mus musculus with 78 samples.

Results

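The lipoxygenase genes described here are Alox15, Alox12, Alox5, Alox12b and Aloxe3, together with Alox5ap, the gene of the protein that presents arachidonic acid to 5-lipoxygenase. They are 6 of the 54446 gene IDs in the RNA-seq tables and were picked by gene name. Alox15 was chosen on its measured rise after 24 h of TRIM28 degradation in the RNA-seq time course, so its values in that time course are given as a description with no test. TRIM28 is the corepressor that KRAB zinc finger proteins bring to endogenous retroviruses (ERVs), where the histone mark H3K9me3 is then laid down. The study asked what happens to transcription in mouse embryonic stem cells (mESCs) when TRIM28 is removed within hours and ERVs are derepressed.

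All treated mESCs carried TRIM28 fused to the FKBP degron on a V6.5 background, from colonies picked after gene editing, so that the small molecule dTAG-13 triggers destruction of the protein. In the time course, 3 libraries each came from cells in 0.05% DMSO and from cells given 500 nM dTAG-13 for 2, 6, 24 or 96 h, and polyadenylated RNA was sequenced. Nascent RNA was read by TT-SLAM-seq, in which RNA made during a pulse of 4-thiouridine is enriched and counted through its T-to-C conversions, in 3 libraries each of DMSO and 2, 6 and 24 h of 500 nM dTAG-13. A further line, called shERV here and made from the tagged cells, carried hairpins against the ERV families IAP, MMERVK10C, MMERVK9C and MMETn that doxycycline (Dox) switches on. Its total RNA was sequenced in 3 libraries each after 24 h of DMSO, of 500 nM dTAG-13, or of 500 nM dTAG-13 with 2 μg/mL Dox. The treatment notes give a day of Dox before treatment for all of these groups, whereas the sample names give Dox to the last group alone, and the groups are used here as named. The study describes its main knockdown experiment as 24 h of hairpin expression before 24 h of TRIM28 degradation. The remaining RNA-seq groups were the untreated parental V6.5 line, which has no tag, and neural progenitor cells (NPCs) in DMSO, with 3 libraries each. ChIP-seq peaks came from tagged mESCs after 24 h of DMSO or 500 nM dTAG-13, with 3 libraries a group for H3K9me3 and H3K27Ac and 2 a group for RNAPII and MED23. All mESCs were expanded on irradiated fibroblast feeders. For the time course, TT-SLAM-seq and ChIP-seq, the labels describe 2 rounds of feeder removal by attachment to gelatin before treatment. For the shERV and parental libraries the labels describe none, although the study's methods give 2 rounds for its RNA-seq experiments in general. Nothing in the labels says that the libraries of a group came from separate cultures. The study describes its TT-SLAM-seq, time course and shERV data as coming from 3 biological replicates. For other experiments it uses that term for wells of a culture plate. Each p-value measures the spread between those libraries, which may still be partly technical.

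Lipoxygenases are iron enzymes that add oxygen to polyunsaturated fatty acids. 12/15-lipoxygenase, the product of Alox15, acts on free arachidonic and linoleic acid and can also oxidise lipids within membranes, and it is best known from macrophages and eosinophils. 5-lipoxygenase with its helper Alox5ap starts leukotriene synthesis in leukocytes, Alox12 is the platelet enzyme, and Alox12b and Aloxe3 act in sequence in the epidermis to build its water barrier. None of these is a textbook gene of embryonic stem cells.

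The TT-SLAM-seq libraries held 6481123 to 24262182 converted reads, recovered from the FPKM values, and the lowest relative depth of the RNA-seq libraries was 0.285, in replicate 1 of 24 h. The 10 stem cell markers examined were all above 1 TPM in every mESC group, and their summed level was 4610 to 5010 TPM in DMSO, 3090 to 3390 TPM at 24 h and 393 to 455 TPM at 96 h. In NPCs all 7 neural progenitor markers were above 1 TPM. Of the 10 stem cell markers there, 7 were under 1 TPM, with Pou5f1 and Zfp42 listed at 0. Sox2, Esrrb and Klf4 were at 1 TPM or more in NPCs, and the 10 summed to 420 to 437 TPM. The degron acts on the protein, so Trim28 RNA is no check of the labels; its level was lower than in DMSO by 0.74 (log2) at 24 h and by 1.70 at 96 h (limma, adjusted p = 2.69e-08 and 7.36e-13). In bulk RNA, fewer cells of one type and less RNA per cell cannot be told apart.

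Alox15 (ENSMUSG00000018924.6) lies on the minus strand of chromosome 11 at 70344152 to 70352031 (mm10), a body of 7880 bases that no other annotated gene overlaps. Its level in the time course was 3.00, 3.52 and 3.08 TPM (a level scaled for transcript length and library depth) in the 3 DMSO libraries and 2.87, 3.57 and 3.96 TPM at 2 h. It was 4.88, 5.07 and 5.04 TPM at 6 h, above every DMSO library. At 24 h it stood at 65.5, 64.9 and 66.7 TPM, and at 96 h at 20.0, 21.1 and 28.8 TPM. Thus the 2 h libraries overlapped DMSO, the 6 h libraries lay slightly above it, the 24 h libraries were far apart from all others, and the 96 h libraries had come part of the way down. Every library lay above every DMSO library for 4456, 7867 and 7952 of the 17922 genes tested at 6, 24 and 96 h. On the scale log2(TPM + 0.5), which all RNA-seq changes below use, the Alox15 difference from DMSO was 0.09 after 2 h and 0.57 after 6 h. It reached 4.16 after 24 h and stood at 2.67 after 96 h.

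**Figure D1:**
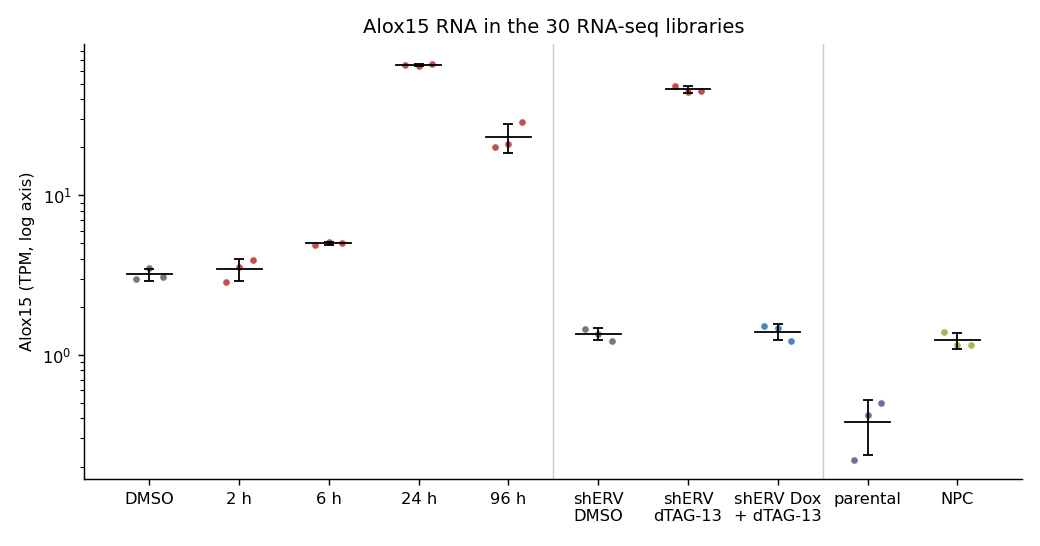
Alox15 level in TPM (log axis) in each of the 30 RNA-seq libraries (points), with the mean and SD of each group of 3 (black). The 3 libraries at 24 h sit between 64.9 and 66.7 TPM and those of the shERV line in dTAG-13 between 44.7 and 48.7 TPM, while the Dox group lies at 1.22 to 1.51 TPM, in the range of its DMSO group.

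The order of the 10 group means, from the highest, was 24 h (65.7 ± 0.92 TPM, SD, n = 3), shERV dTAG-13 (46.1 ± 2.27), 96 h (23.3 ± 4.77), 6 h (5.00 ± 0.10), 2 h (3.47 ± 0.55), DMSO (3.20 ± 0.28), shERV dTAG-13 with Dox (1.40 ± 0.16), shERV DMSO (1.35 ± 0.12), NPC (1.24 ± 0.14) and parental (0.38 ± 0.14). Neighbours in this order whose libraries overlapped were 2 h and DMSO, the Dox and DMSO groups of the shERV line, and shERV DMSO and NPC. The shERV libraries were made from total RNA and the others from polyadenylated RNA, so the method of library preparation cannot be told apart from the line when levels are set side by side.

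In the shERV line, none of whose libraries were used to choose the gene, Alox15 rose and the rise was absent with Dox. Its level was 1.46, 1.36 and 1.23 TPM in DMSO, 48.7, 44.7 and 44.8 TPM in dTAG-13, and 1.51, 1.47 and 1.22 TPM in dTAG-13 with Dox. Every dTAG-13 library was above every other library of the line, and the Dox libraries overlapped those in DMSO. Of the 16166 genes tested, 7277 had every dTAG-13 library above every DMSO library, and 5822 had every Dox library below every dTAG-13 library. The Alox15 change with dTAG-13 was 4.65 (log2, SE 0.088, limma adjusted p = 4.38e-11), a fold of 25.2. Dox with dTAG-13 against dTAG-13 alone gave −4.62 (SE 0.088, adjusted p = 4.84e-11). Dox with dTAG-13 against DMSO gave 0.04 (SE 0.088, adjusted p = 0.80). Genes are called here at a change of more than 2-fold with an adjusted p under 0.05, and 3.82%, 3.45% and 0.0186% of the 16166 genes tested were called in these 3 comparisons, which share libraries. The stem cell markers also moved with these groups. Of the 10, 8 were called lower with dTAG-13 and 8 called higher with Dox. Their summed level was 2420 to 2790 TPM in DMSO, 1190 to 1230 TPM in dTAG-13 and 2670 to 2720 TPM with Dox. Trim28 RNA changed by −0.39 with dTAG-13 (limma adjusted p = 3.15e-05) and by 0.46 for Dox with dTAG-13 against dTAG-13 (adjusted p = 1.09e-05). Against DMSO, Dox with dTAG-13 gave 0.075 for Trim28 (adjusted p = 0.37). The part of the markers and of Trim28 in the Alox15 result was not tested. By the sample names, no group had Dox alone or hairpins without an ERV target. Effects of Dox itself and of the hairpins thus cannot be told apart.

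Nascent Alox15 RNA was nearly undetectable at first and higher at 24 h. Its FPKM in TT-SLAM-seq, which scale reads for gene body length and depth, were 0, 0.0302 and 0.0111 in the DMSO libraries, standing for 0, 3 and 1 reads. After 2 h they were 0, 0.0536 and 0 (0, 6 and 0 reads), and after 6 h 0.0392, 0.0417 and 0.0688 (5, 6 and 9 reads). After 24 h they were 0.418, 0.662 and 0.548, or 80, 107 and 28 reads. The 24 h libraries were thus apart from all others, and the 6 h libraries lay above those in DMSO by a few reads each. At 6 and 24 h, 3205 and 5489 of the 13357 genes tested lay wholly above DMSO. Summed over libraries, DMSO held 4 Alox15 reads, or 0.128 RPM (reads scaled for depth alone, 95% exact Poisson interval 0.0348 to 0.327), and 24 h held 215 reads, or 4.19 RPM (3.65 to 4.79). These intervals cover counting error only. The 0 reads of DMSO replicate 1 allow up to 0.411 RPM, and those at 2 h up to 0.184 and 0.213 RPM.

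Alox15 missed the minimum of 0.5 FPKM in 3 libraries, so on the scale log2(FPKM + 0.5), which understates the change of low genes, its change is given with no test. It was 0.01 after 2 h, 0.10 after 6 h and, after a day, 1.01. With the minimum dropped, this last change was called (limma adjusted p = 5.02e-05), as were 1.21% of 34708 genes. A fit to the recovered read numbers (voom, added after the data were seen) gave 4.90 at 24 h (95% interval 3.29 to 6.5, adjusted p = 2.1e-05). At 6 h it gave 1.55 (−0.26 to 3.37, adjusted p = 0.254) and at 2 h −0.82 (−3.06 to 1.43, adjusted p = 0.675). That fit called 2.34%, 2.13% and 17.5% of 19038 genes at 2, 6 and 24 h.

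**Figure D2:**
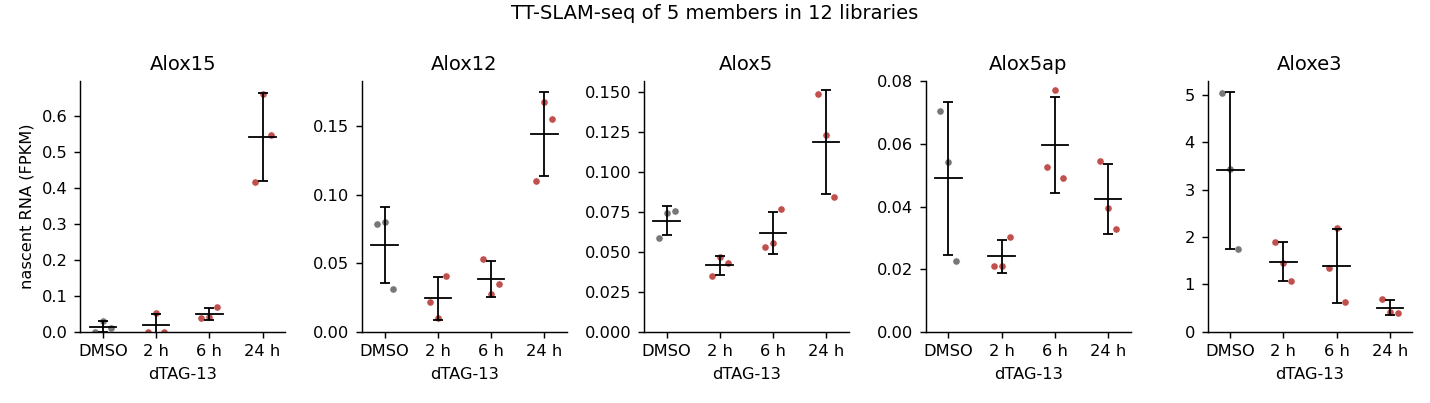
Nascent RNA in FPKM of 5 members in each of the 12 TT-SLAM-seq libraries (points) in DMSO and after 2, 6 and 24 h of dTAG-13, with the mean and SD of each group of 3 (black) and a vertical axis of its own for each gene. Alox15 reached 0.418 to 0.662 FPKM at 24 h, whereas Aloxe3 was at 1.74 to 5.04 FPKM in DMSO and at 0.405 to 0.689 FPKM at 24 h.

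Around Alox15, H3K9me3 peaks in DMSO and H3K27Ac, RNAPII and MED23 peaks in dTAG-13 lay over the same stretch, about 15 kb upstream of the gene. Libraries differ in how many peaks were called, from 11474 to 147611 for H3K9me3, so for each mark the same number of peaks of highest fold enrichment was taken from every library. Within 50 kb of Alox15, H3K9me3 then covered 5589, 6377 and 5485 bases in DMSO and 0 in all 3 dTAG-13 libraries. The difference was −5817 bases, with an exact two-sided permutation p of 0.1, the lowest that 3 against 3 can give. Of 21938 protein-coding genes, 20.7% had every dTAG-13 library below every DMSO library in the same way, as had 43.1% of the 10558 genes with any H3K9me3 coverage. The peaks taken covered 24.8 to 39.7 Mb of the genome in DMSO and 5.32 to 17.7 Mb in dTAG-13. With all deposited peaks the 3 dTAG-13 libraries still had none within 50 kb of Alox15, including the library with 147611 peaks.

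The widest H3K9me3 peak of each DMSO library was centred 15.05, 15.09 and 15.01 kb upstream of the start, with a fold enrichment of 4.77, 5.26 and 4.69, and was among the top 2.91%, 0.236% and 0.995% of that library's peaks. A further peak in each lay 9.37 to 9.64 kb upstream. H3K27Ac, a mark of active enhancers and promoters, covered 0 bases in the 3 DMSO libraries and 3335, 4715 and 3518 bases in dTAG-13 (difference 3856, exact permutation p = 0.1), a pattern seen at 1.40% of the genes and at 1.66% of those with any coverage. Its widest dTAG-13 peak was centred 15.21, 15.09 and 14.63 kb upstream with a fold enrichment of 13.1, 17.2 and 13.4, in the top 1.03%, 0.841% and 0.388% of peaks. Equal numbers reached down to a fold enrichment of 3.29 to 3.70 in the DMSO libraries and of 1.07 to 3.75 in those in dTAG-13. Without the limit on peak number, the DMSO libraries had H3K27Ac peaks too, over 363, 1806 and 1580 bases, none with a fold enrichment above 3.64. Some of these lay over the same stretch. They were centred 15.32 and 16.16 kb upstream in DMSO replicate 2 (3.64 and 3.15) and 15.12 kb upstream in replicate 3 (3.36).

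RNAPII peaks within 50 kb covered 0 and 0 bases in DMSO and 985 and 918 bases in dTAG-13, a difference of 951.5 bases. MED23, a subunit of the Mediator coactivator, covered 0 and 0 bases in DMSO and 2376 and 1772 bases in dTAG-13, a difference of 2074. The exact permutation p was 0.33 for both, the lowest that 2 against 2 allows, and 2.39% and 5.23% of the genes had the same separation for RNAPII and for MED23, or 3.91% and 6.85% of those with any coverage. Equal numbers reached down to a fold enrichment of 6.32 to 8.20 in the DMSO libraries of these marks and of 1.19 to 3.29 in those in dTAG-13. The main RNAPII peaks, with fold enrichments of 8.70 and 8.29, were centred 15.42 and 15.57 kb upstream. The strongest MED23 peaks (23.8 and 23.2) were centred 15.77 and 15.76 kb upstream. With all deposited peaks, which numbered 63045 and 58925 in DMSO against 15335 and 14551 in dTAG-13, MED23 covered 1801 and 1629 bases in DMSO, and the difference shrank to 359 bases (exact permutation p = 0.667). Its DMSO peaks at the same place had fold enrichments of 4.80 and 3.52. A separate MED23 peak about 4.1 kb upstream was present in all 4 libraries, with fold enrichments of 5.67 and 5.93 in DMSO and 6.16 and 7.23 in dTAG-13.

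**Figure D3:**
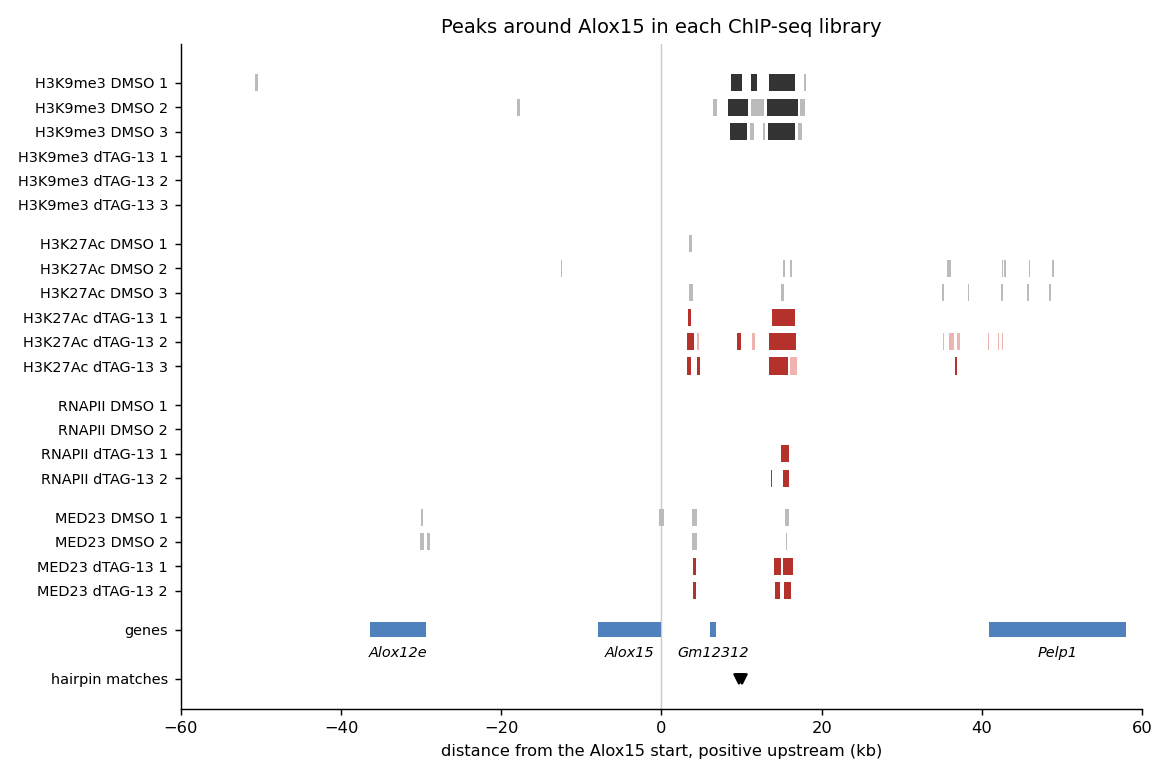
Deposited peaks around Alox15 in each ChIP-seq library (rows; grey for DMSO, red for dTAG-13), by distance in kb from the Alox15 start, positive upstream. Dark bars are peaks among the strongest of each library in equal number and pale bars are the rest, blue bars are gene bodies, and triangles mark the hairpin matches at 9.72 and 10.09 kb. The H3K9me3 bars of DMSO and the H3K27Ac, RNAPII and MED23 bars of dTAG-13 share the stretch near 15 kb.

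At the Alox15 start itself, no H3K9me3, H3K27Ac or RNAPII peak lay within 1 kb in any library, and a MED23 peak lay there in 1 of 2 DMSO libraries (fold enrichment 4.35). The widest peaks of the marks that differed were thus at the stretch about 15 kb upstream. H3K27Ac peaks of the equal number also lay 3.51, 3.59 and 3.46 kb upstream in the dTAG-13 libraries (fold enrichments 4.43, 5.00 and 3.77). In DMSO, replicates 1 and 3 had H3K27Ac peaks near there (2.54 and 3.00), outside the equal number.

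The stretch about 15 kb upstream was largely repeat sequence. Of the 10 kb at chromosome 11, 70360001 to 70370000 (mm10), intergenic between Gm12312 and Pelp1, 71.4% was soft-masked as repeat in the reference genome, against 8.16% of the Alox15 gene body. Elsewhere in the genome it had 396 matches of at least 1000 bases at 80% identity or more, with a median identity of 85.2% and a highest of 94.8%. Among these, 126 overlapped full-length elements that the study listed as MMERVK9C, 12 MMERVK9E and 24 MMETn. The other 234 overlapped none of its listed full-length MMERVK or MMETn elements, and its other lists of elements were not searched. All of the 126 matches to MMERVK9C elements ran along the plus strand of the stretch, opposite to Alox15. None of the study's listed full-length MMERVK or MMETn elements lies within 50 kb of Alox15.

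The study's hairpins were compared with this region because Alox15 was lower when they were induced. Of the 8 hairpin target sequences, both against MMERVK9C had 1 match each with up to 2 mismatches within 50 kb of Alox15, both on the plus strand of the upstream stretch. In the target and site sequences below (5′ to 3′, capitals at the mismatches, sites read from mm10), positions count from 1 at the 5′ end and the target's base comes first.
MMERVK9c_1 target: cccagaGgcagagagaaattt
MMERVK9c_1 site: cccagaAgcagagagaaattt
MMERVK9c_2 target: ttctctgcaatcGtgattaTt
MMERVK9c_2 site: ttctctgcaatcAtgattaAt

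The MMERVK9c_1 site at chr11:70361749-70361769 differs by G7A and lies 9.72 kb upstream of the Alox15 start. The MMERVK9c_2 site at chr11:70362121-70362141 differs by G13A and T20A and lies 10.09 kb upstream. The former lies within H3K9me3 peaks of all 3 DMSO libraries, and the latter within those of replicates 2 and 3. Of protein-coding genes, 1.02% had a MMERVK9c_1 match and 2.11% a MMERVK9c_2 match of this kind within 50 kb, and the shares for the other 6 hairpins were 0.21% to 10.0%. Those 6 had no such match near Alox15. Within the Alox15 gene body the closest match of any hairpin had 6 mismatches. A match describes letters only; knockdown from these sites was not measured.

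The genes within 50 kb of Alox15 are Alox12e, the pseudogene Gm12312 and Pelp1. Alox12e (ENSMUSG00000018907.10), an epidermal 12-lipoxygenase gene 21.5 kb downstream on the same strand, had the same order of groups at its top. It was at 0.148, 0.146 and 0.233 TPM in DMSO, 2.72, 3.06 and 3.83 TPM at 24 h and 0.598, 1.04 and 0.793 TPM at 96 h. In the shERV line it was at 0.201, 0.147 and 0.0789 TPM in DMSO, 2.12, 1.98 and 2.08 TPM in dTAG-13, and 0.132, 0.146 and 0 TPM with Dox.

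Alox12e passed the minimum of 1 TPM in 3 libraries only through the 24 h group and, in the shERV line, through the dTAG-13 group, so its changes are given with the minimum dropped as well. It rose by 2.45 (log2, SE 0.155, limma adjusted p = 8.95e-09, and 8.31e-08 with no minimum) at 24 h. It rose by 0.94 (adjusted p = 5.9e-05, and 1.34e-04 with no minimum, under 2-fold) at 96 h, which was just past 2-fold without DMSO replicate 3 (1.00) or 96 h replicate 1 (1.06). With dTAG-13 it rose by 2.00 in the shERV line (SE 0.169, adjusted p = 2.14e-06, and 3.83e-05 with no minimum), and Dox with dTAG-13 against dTAG-13 gave −2.12 (adjusted p = 1.63e-06, and 3.48e-05 with no minimum). Its nascent reads were 1, 2 and 1 in DMSO, none at 2 h and 12, 17 and 2 at 24 h. Gm12312, which lies between Alox15 and the repeat stretch, was at 3.55, 2.69 and 2.42 TPM in DMSO and 2.74, 2.45 and 2.78 TPM at 24 h (−0.09, adjusted p = 0.646). Pelp1, the gene of a steroid receptor coregulator 40.9 kb upstream, fell by 0.30 at 24 h (adjusted p = 3.4e-07) and had a nascent change of 0.00 (adjusted p = 0.988). Alox12e thus rose and the neighbours upstream, Gm12312 and Pelp1, did not.

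**Figure D4:**
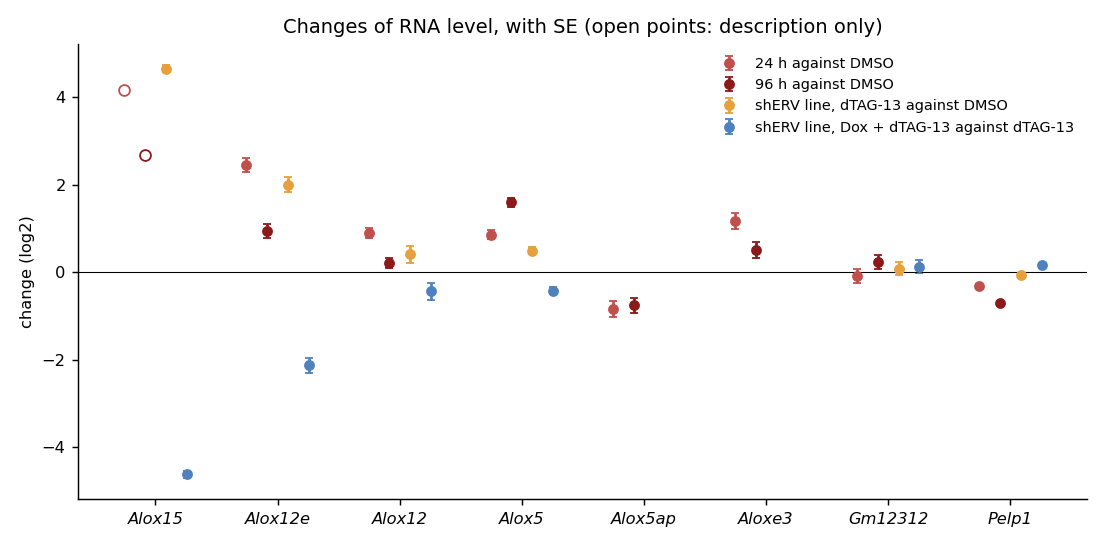
Change of RNA level (log2, with SE) of 4 members, Alox15 and the genes near Alox15 in 4 comparisons. Open points are the time course values of Alox15, given without error since the gene was chosen on them; Alox5ap and Aloxe3 missed the minimum level in the shERV line. Alox15 and Alox12e rise with dTAG-13 and are lower in Dox with dTAG-13 than in dTAG-13 alone. Gm12312 and Pelp1 are not called in either direction.

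Alox15 aside, Alox12, Alox5, Alox5ap and Aloxe3 passed the minimum in the time course and Alox12b did not. None of these 4 was called by limma after 2 h or after 6 h, with 1 (Alox5ap) and 0 at an unadjusted p under 0.05, and 0.374% and 0.965% of the 17922 genes tested were called then. Aloxe3 was called at 24 h, when 12.2% of all genes were, and Alox5 at 96 h, when 32.7% of all genes were. The difference of the 24 h changes from those of the shERV line was tested in a joint fit, in which 8.72% of genes were called and Aloxe3, which passed the minimum there through the 24 h group alone, was too (−1.06, adjusted p = 0.0108).

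Alox5 (ENSMUSG00000025701.12, chromosome 6, 116410077 to 116461178, minus strand), the first enzyme of the leukotriene pathway, rose more slowly and was highest at 96 h. It was at 2.62, 2.23 and 2.95 TPM in DMSO, 2.25, 1.96 and 2.32 TPM at 2 h and 2.45, 2.30 and 2.48 TPM at 6 h. It reached 5.09, 4.86 and 5.30 TPM at 24 h and 7.87, 9.18 and 9.72 TPM at 96 h. Only the 24 h and 96 h groups lay above all DMSO libraries. That separation was seen at 24 h for 7867 and at 96 h for 7952 of the 17922 genes tested. The changes were 0.85 (SE 0.102, limma adjusted p = 4.33e-06) at 24 h and 1.60 (SE 0.102, adjusted p = 1.86e-09) at 96 h.

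At 96 h the summed feeder fibroblast markers were 297 to 322 TPM against 25.7 to 26.8 TPM in DMSO, and 7 of the 9 tested were called higher. The summed leukocyte markers were 50.8 to 54.7 TPM against 26.8 to 31.6 TPM. Adgre1, Tyrobp and S100a8 were at 0, Csf1r, Cd68 and Cd14 at 1 TPM or more, and 16 of the 19 under 1 TPM. Of 5 tested, 2 were called higher and 1 lower. The 6 endoderm markers summed to 78.5 to 83.4 TPM against 15.0 to 19.3 TPM, with 4 called higher. The 8 platelet markers summed to 16.9 to 18.4 TPM against 3.08 to 3.78 TPM, with all 3 tested called higher. Of all genes, 32.7% were called at 96 h in either direction. The part of any of these in the Alox5 and Alox15 levels at 96 h was not tested. Alox5 in the shERV line was at 2.88, 2.96 and 3.14 TPM in DMSO, 4.58, 4.43 and 4.25 TPM in dTAG-13 and 3.28, 3.06 and 3.23 TPM with Dox. It rose by 0.50 with dTAG-13 (adjusted p = 3.18e-04), and Dox with dTAG-13 against dTAG-13 gave −0.42 (adjusted p = 0.0014), both under 2-fold. Its nascent reads were 22, 48 and 44 in DMSO and 185, 129 and 28 at 24 h, and the fit to read numbers gave 0.82 (0.33 to 1.31, adjusted p = 0.0071), whereas on log2(FPKM + 0.5) the change was 0.12, and −0.12 with libraries centred on their median. Within 1 kb of its start, RNAPII peaks were deposited in 2 of 2 DMSO libraries (fold enrichments 5.32 to 5.80) and in 0 of 2 dTAG-13 libraries. The DMSO libraries held 19853 and 19194 RNAPII peaks in all, and the dTAG-13 libraries 8182 and 7689.

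Alox5ap (ENSMUSG00000060063.9, chromosome 5, 149264767 to 149288153, plus strand) moved the other way. It was at 2.05, 2.71 and 3.02 TPM in DMSO, 1.80, 1.70 and 1.23 TPM at 2 h, and 1.93, 1.81 and 2.21 TPM at 6 h. It was at 1.72, 1.00 and 1.01 TPM at 24 h and 1.38, 1.52 and 1.08 TPM at 96 h. All libraries at 2, 24 and 96 h were below all DMSO libraries, as for 3566, 4691 and 6950 of the 17922 genes tested. The changes were −0.57 at 2 h (limma adjusted p = 0.0431), −0.84 at 24 h (7.52e-04) and −0.76 at 96 h (0.00125), all under 2-fold. They were past 2-fold and called with libraries centred on their median (−1.13 at 24 h and −1.03 at 96 h), and at 24 h also with a pseudocount of 0.1 (−1.03) or without replicate 1 of 24 h, the library of lowest depth (−1.03). It stayed at or below 1.00 TPM in the shERV line. An antisense gene overlaps it, and reads of either gene cannot be told apart in RNA-seq if strand was not counted. Its nascent reads summed to 34 in DMSO and 55 after 24 h, a change of 0.06 in the fit to read numbers (adjusted p = 0.927).

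Alox12 (ENSMUSG00000000320.10, chromosome 11, 70241457 to 70255353, minus strand), 88.8 kb downstream of Alox15, was highest at 24 h. It was at 1.51, 1.52 and 1.46 TPM in DMSO, 3.36, 3.35 and 2.94 TPM at 24 h and 2.05, 1.68 and 1.69 TPM at 96 h. The change at 24 h was 0.90 (SE 0.113, limma adjusted p = 7.74e-06), and at 96 h it was 0.20 (adjusted p = 0.111). Its levels in the shERV line were 0.910, 1.03 and 1.05 TPM in DMSO, 1.26, 1.68 and 1.54 TPM in dTAG-13, and 0.529, 1.24 and 1.27 TPM with Dox. The change with dTAG-13 was 0.41 (adjusted p = 0.0983). Nascent reads were 8, 14 and 5 in DMSO and 37, 48 and 14 at 24 h, and the fit to read numbers gave 1.19 (0.32 to 2.07, adjusted p = 0.0248), whereas on log2(FPKM + 0.5) the change was 0.19, and −0.05 with libraries centred on their median.

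Aloxe3 (ENSMUSG00000020892.10, chromosome 11, 69125896 to 69149115, plus strand), an isomerase of epidermal hydroperoxides, was lower in nascent RNA and higher in polyadenylated RNA after 24 h of dTAG-13. Its nascent FPKM were 5.04, 3.44 and 1.74 in the DMSO libraries and 1.90, 1.46 and 1.07 after 2 h of dTAG-13. After 6 h they were 1.34, 2.19 and 0.620, and after 24 h 0.689, 0.424 and 0.405. The DMSO libraries were widely spread and their lowest overlapped the 2 h and 6 h libraries, but the 24 h libraries were below all of them. That separation was seen for 1138 of the 13357 genes tested. The change at 24 h was −1.87 (SE 0.37, limma adjusted p = 0.0032), from 2323 reads summed over DMSO to 651 over 24 h.

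Among the members, Aloxe3 alone passed the minimum in TT-SLAM-seq, and it was called at 24 h, where 3.40% of 13357 genes were called, and not at 2 h (−0.91, adjusted p = 0.195) or 6 h (−1.05, adjusted p = 0.107), where 0.225% and 0.569% were. Without DMSO replicate 3 the 6 h change was −1.40 and was called (adjusted p = 0.0427). The fit to read numbers called it at all 3 times (−1.10, −1.33 and −2.57, adjusted p = 0.0388, 0.0077 and 8.95e-06). In polyadenylated RNA it was at 0.561, 0.489 and 0.701 TPM in DMSO and 1.72, 2.50 and 1.63 TPM at 24 h. The 24 h libraries were all above DMSO, as for 7867 of the 17922 genes tested. Aloxe3 changed by 1.16 (SE 0.183, limma adjusted p = 6.4e-05). Since it passed the minimum through that group alone, it was also tested with no minimum, where the adjusted p was 2.96e-04. The change was under 2-fold with a pseudocount of 1 (0.89) and with libraries centred on their median (0.87). At 96 h it was at 0.995, 0.882 and 1.24 TPM (0.51, adjusted p = 0.0207). H3K27Ac peaks lay within 1 kb of its start in 3 of 3 libraries of both groups. The difference between the 2 assays was not tested, since their values are on separate scales.

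Alox12b (ENSMUSG00000032807.5, chromosome 11, 69156989 to 69169792, plus strand), which makes the substrate of Aloxe3, was at 0 to 0.760 TPM in all 30 RNA-seq libraries and had at most 3 reads in any TT-SLAM-seq library. Its highest group was 24 h, at 0.760, 0.469 and 0.684 TPM, against 0.342, 0.266 and 0.179 TPM in DMSO. Alox12b missed the minimum level. With no minimum its change at 24 h was 0.57 (limma adjusted p = 0.00416), under 2-fold.

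**Figure D5:**
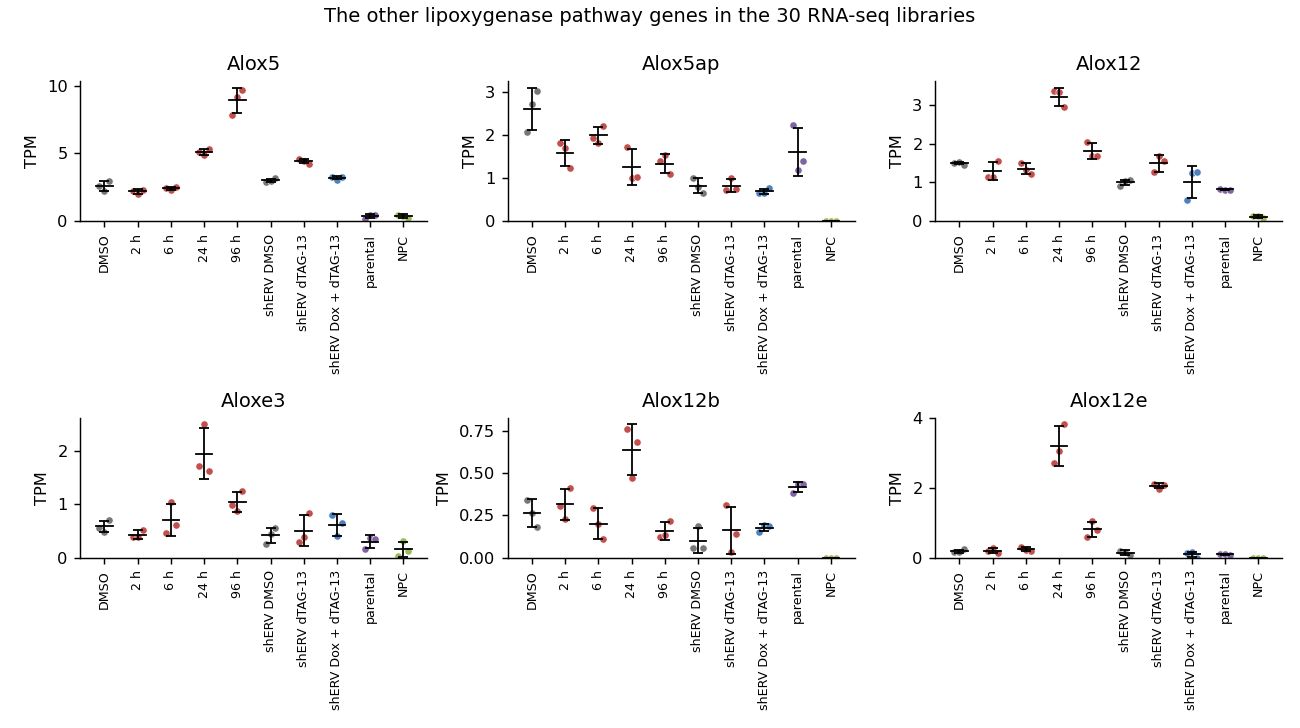
Level in TPM of the other members and of Alox12e in each of the 30 RNA-seq libraries (points), with the mean and SD of each group of 3 (black) and a vertical axis of its own for each gene. Alox5 is highest at 96 h (7.87 to 9.72 TPM), Alox12, Aloxe3, Alox12b and Alox12e are highest at 24 h, and Alox5ap is highest in DMSO.

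Alox5 and Alox12 were lower in the parental line and in NPCs than in tagged mESCs in DMSO. Of all 17458 genes tested, 11.4% were called in the parental line and 46.6% in NPCs. Alox12b, which missed the minimum, was at 0.382 to 0.436 TPM in the parental line, above the 0.179 to 0.342 TPM of tagged cells in DMSO. With no minimum that difference was 0.27 (limma adjusted p = 0.023), under 2-fold. Alox15 was at 0.221, 0.422 and 0.498 TPM in the parental line, 2.08 (log2) below the tagged line in DMSO, and at 1.40, 1.16 and 1.15 TPM in NPCs, 1.09 below; both differences are descriptions, because the tagged DMSO libraries were used to choose the gene. Between NPCs and the parental line Alox15 differed by 0.99 (SE 0.131, limma adjusted p = 5.13e-05), just under 2-fold and higher in NPCs. It was past 2-fold in 4 of 6 fits that each left out 1 library (parental replicate 2 or 3, NPC replicate 2 or 3; 1.02 to 1.09) and was 0.40 with libraries centred on their median. In that comparison Alox12 and Alox5ap were called lower in NPCs, and 49.4% of all genes were called.

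Alox5 and Alox12 passed the minimum here through the tagged libraries alone. Alox5 was at 0.174, 0.399 and 0.440 TPM in the parental line and at 0.461, 0.386 and 0.213 TPM in NPCs, below every tagged library. That separation was seen for 7596 genes in the parental line and 6854 in NPCs, of the 17458 tested. The Alox5 difference from the tagged line was −1.90 (adjusted p = 6.65e-06, and 6.81e-05 with no minimum) in the parental line and −1.87 (adjusted p = 2.15e-06, and 2.48e-05) in NPCs. Alox12 was at 0.831, 0.80 and 0.813 TPM in the parental line (−0.60, adjusted p = 1.15e-04, and 3.22e-04 with no minimum) and at 0.131, 0.135 and 0.0656 TPM in NPCs (−1.71, adjusted p = 1.54e-08, and 1.74e-07 with no minimum). Alox5ap was at 2.22, 1.18 and 1.39 TPM in the parental line (−0.58, adjusted p = 0.0181) and listed at 0 in all 3 NPC libraries. The parental cells differ from the tagged DMSO cells in the tag, in DMSO and in the culture steps that the labels describe, which cannot be told apart here. Their summed feeder fibroblast markers were 107 to 109 TPM, against 25.7 to 26.8 TPM, and the part of feeder RNA was not tested.

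Beyond the members, 37 other genes of eicosanoid synthesis and signalling were counted, of which 28 were tested in the time course. At 24 h 3 were called higher and 2 lower, and their median change was 0.14 beside 0.13 over all genes. Higher were Alox12e, the cytosolic phospholipase gene Pla2g4b (1.56, limma adjusted p = 3.98e-05) and Ephx2, the soluble epoxide hydrolase (1.07, adjusted p = 2.92e-06). Lower were Ptgs2, the inducible cyclooxygenase (−1.30, adjusted p = 9.02e-08), and Cysltr1, a cysteinyl leukotriene receptor (−1.07, adjusted p = 5.2e-07).

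At 96 h 7 were called higher and 8 lower, with a median of 0.08 beside 0.05 over all genes. Ptgs2 was then higher by 3.47 (adjusted p = 5.59e-13), having been at 2.05, 1.49 and 1.95 TPM in DMSO, 0.467, 0.498 and 0.356 TPM at 24 h and 25.2, 25.6 and 24.7 TPM at 96 h. Of the 26 tested in the shERV line, 1 was called with dTAG-13 (Alox12e), with a median of 0.00 beside 0.14 over all genes, and with added Dox the same gene alone was called lower. In TT-SLAM-seq 10 were tested, of which 6 were higher after 24 h at an adjusted p below 0.05 in limma, each by less than 2-fold, as were 32.3% of all genes at any fold.

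Since lipid peroxides made by lipoxygenases are cleared by the glutathione system, 18 genes of lipid peroxidation and ferroptosis were counted too. All 18 were tested in the time course, and at 24 h 1 was called higher and 3 lower, with a median of −0.03 beside 0.13 over all genes. Gch1, the first enzyme of tetrahydrobiopterin synthesis, rose by 1.12 (limma adjusted p = 1.42e-06). Slc7a11, the cystine transporter, fell by 1.47 (adjusted p = 3.94e-08), from 1.18, 1.07 and 1.11 TPM to 0.0217, 0.140 and 0.0933 TPM. Gpx1, a glutathione peroxidase, fell by 1.36 (adjusted p = 1.1e-09), from 516, 528 and 489 TPM to 178, 206 and 215 TPM, and Hmox1, heme oxygenase, fell by 1.36 (adjusted p = 3.09e-12).

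Of these, Hmox1 was also called lower in TT-SLAM-seq at 24 h (−1.09, adjusted p = 9.37e-04), while nascent Gpx1 had a change of 0.24 (adjusted p = 0.0882). At 96 h Slc7a11 was higher than in DMSO by 1.95 (adjusted p = 4.37e-10). With dTAG-13 in the shERV line, 8 of 17 were higher and 3 lower at an adjusted p below 0.05 in limma, each by less than 2-fold, beside 41.2% higher and 12.8% lower of all genes at any fold. The 24 h changes of Hmox1, Slc7a11 and Gpx1 differed between the 2 lines by 1.24, 1.24 and 1.50 (adjusted p = 2.35e-07, 2.4e-04 and 6.4e-07).

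Of markers of the cells in which lipoxygenases are best known, most were under 1 TPM, with exceptions that were more frequent among epidermal markers. Of 19 macrophage and granulocyte markers, 16 were under 1 TPM in every DMSO and 24 h library. Their summed level was 26.8 to 31.6 TPM in DMSO and 28.2 to 29.5 TPM at 24 h. Adgre1, Tyrobp, Prg2 and Mpo were at 0 in both groups, while Cd68 was at 1 TPM or more in both and Fcgr3 at 24 h. Of 8 platelet markers 6 were under 1 TPM in both groups, with Pf4 and Gp9 at 0 and Itga2b and Itgb3 at 1 TPM or more. The 8 summed to 3.08 to 3.78 TPM in DMSO and 6.10 to 7.63 TPM at 24 h. Of 15 epidermal markers 9 were under 1 TPM in every DMSO library and 11 in every 24 h library. Krt10, Tgm1 and Nipal4 were at 1 TPM or more in both groups, and Krt14 and Tgm3 in DMSO. The 15 summed to 63.5 to 67.2 TPM in DMSO, 34.4 to 35.2 TPM at 24 h and 109 to 114 TPM at 96 h. Feeder fibroblast markers summed to 25.7 to 26.8 TPM in DMSO and 32.0 to 33.5 TPM at 24 h, and 6 endoderm markers to 15.0 to 19.3 and 25.9 to 27.1 TPM.

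Across the means of the 10 RNA-seq groups, the genes whose log2(TPM + 0.5) was most like that of Alox15, among 19714 genes, were Cthrc1 (Pearson r = 0.986), Cyp2b23 (0.984), Cdhr2 (0.970), 4933401D09Rik (0.964) and Gm16505 (0.964). None of them is on chromosome 11. Cthrc1, a secreted glycoprotein gene, had means of 16.5 TPM in DMSO, 241 TPM at 24 h and 85.8 TPM at 96 h, and of 9.47, 126 and 10.4 TPM in the DMSO, dTAG-13 and Dox groups of the shERV line. Cyp2b23, a cytochrome P450 gene, had means of 2.62, 34.7 and 10.3 TPM and of 0.758, 17.8 and 0.839 TPM in the same groups. Alox12e had an r of 0.948 and ranked at 12, while Alox5 (0.750), Aloxe3 (0.749) and Alox12 (0.739) ranked at 549, 555 and 623 and Alox5ap (0.150) at 8571. The points are group means that share libraries and line, and the highest group weighs most.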

How the data were processed

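RNA-seq values are TPM per gene, made by the authors with cutadapt 2.4, STAR 2.7.5a and StringTie 2.0.6 per the labels. The read coverage the authors deposited beside them served only to estimate relative depth. TT-SLAM-seq values are FPKM deposited in 1 table, from T-to-C reads counted on GENCODE gene bodies by the authors. Steps in the FPKM gave whole reads (within 0.1) for 97.8% to 98.7% of low values. ChIP-seq peaks were called by the authors per library with MACS2, with fold enrichment (a ratio over input) and −log10 q values as deposited. All are on mm10. Inputs, Hi-C and single-cell data were not analysed here.

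Each experiment was fitted across all genes with limma 3.58.1 (R 4.3.3; eBayes with trend) on log2(value + 0.5), with a minimum of 1 TPM or 0.5 FPKM in 3 libraries and Benjamini-Hochberg adjustment. The same script was tested on simulated data. Peak-covered lengths were compared by exact permutation (scipy 1.17.1), with the 11474 (H3K9me3), 30259 (H3K27Ac), 7689 (RNAPII) and 14551 (MED23) peaks of highest fold enrichment per library. Repeat matches were found with BLAST 2.17.0. Promoter sequences of the members were not used.

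Members and lists were chosen with earlier results of these data known. Named genes are the members, genes within 50 kb of Alox15, list members called at 24 h, and the 5 genes most like Alox15. The voom fit took genes with at least 10 reads in 3 libraries. The alternatives were another pseudocount, no minimum level, centring of libraries, a replicate block, each replicate left out, all peaks and a 20 kb window.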

Additional observations from a re-analysis of the deposited data

Results flagged for a closer look

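For 4 members, what 24 h of dTAG-13 did in the shERV line differed from the time course at an adjusted p below 0.05. The difference was tested in one limma fit over both experiments. Among these members Aloxe3 alone was also past 2-fold and thus called, as were 8.72% of 17653 genes. The share of all genes at an adjusted p below 0.05 at any fold was not counted. Written as the change in the shERV line minus that in the time course, the difference was −1.06 for Aloxe3 (log2, adjusted p = 0.0108), −0.48 for Alox12 (adjusted p = 0.0213), −0.36 for Alox5 (adjusted p = 0.0405) and 0.85 for Alox5ap (adjusted p = 0.016). The line and the RNA selection (total or polyadenylated) differ together between these experiments and cannot be told apart. Aloxe3 and Alox5ap were at or below 1.00 TPM in every shERV library, and Aloxe3 passed the minimum level through the 24 h group alone.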

How the results depend on the processing

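In the shERV line, the Alox15 change stayed called in all alternatives run, at 4.32 to 5.00 with dTAG-13 and −4.95 to −4.29 with added Dox (limma, highest adjusted p = 5.28e-07). Changes of members and of Alox12e turned sign 35 times, none of them called before or after. Centring did so for nascent Alox12 (0.19 to −0.05), Alox5 (0.12 to −0.12) and Alox12e (0.15 to −0.09) at 24 h, for nascent Alox5ap at 6 h (0.03 to −0.04) and for Alox12 at 96 h (0.20 to −0.07). With a pseudocount of 0.1 the nascent Alox15 change was 0.40 at 6 h and 2.49 at 24 h, and with 1 it was 0.60 at 24 h. The fit to read numbers gave −0.82, 1.55 and 4.90 at 2, 6 and 24 h, and called 445, 406 and 3332 genes where limma on FPKM called 30, 76 and 454. Centring libraries on their median moved changes by −0.24 in TT-SLAM-seq at 24 h, −0.29 and −0.28 in RNA-seq at 24 and 96 h and −0.59 between NPCs and parental cells. Alox15 was then 0.77 (nascent, 24 h), 3.87 (24 h), 2.39 (96 h), −1.89 (parental) and −1.49 (NPC). Centring also turned the split of genes called higher and lower from 333 and 121 to 141 and 241 (nascent, 24 h) and from 1819 and 360 to 886 and 919 (RNA-seq, 24 h). For the other comparisons it moved from 139 and 34 to 92 and 44 (RNA-seq, 6 h), 3634 and 2228 to 2713 and 3364 (96 h), 385 and 232 to 246 and 353 (shERV, dTAG-13), 241 and 317 to 293 and 252 (added Dox), 393 and 1598 to 624 and 1161 (parental), 4522 and 3608 to 3302 and 4910 (NPC), 5287 and 3331 to 3546 and 5580 (NPC against parental) and 50 and 26 to 37 and 31 (nascent, 6 h). Centring also left Aloxe3 at 24 h (0.87) under 2-fold. With a pseudocount of 1 the Alox15 change at 24 h was 3.99, and its differences were −1.61 (parental) and −0.91 (NPC); with 0.1 they were −2.83 and −1.31. At 24 h in RNA-seq 4 members were called with a pseudocount of 0.1 and 1 with 1, and between NPCs and parental cells 1 was called with a pseudocount of 1.

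With all deposited peaks the difference was −7465 bases for H3K9me3 and 359 for MED23. Leaving out each library gave 918 to 985 bases for RNAPII and 1772 to 2376 for MED23. The labels give no pairing of samples by replicate number. The correlation of same-numbered libraries ranged from −0.16 to 0.18 in TT-SLAM-seq and from −0.06 to 0.12 in the time course. Its median was 0.019 beside −0.014 for other pairs in TT-SLAM-seq, and 0.026 beside −0.018 in the time course. There 7 of 12 and 8 of 15 libraries correlated best with their own number. This held for 6 of 9 in the fit of parental, tagged and NPC libraries and 2 of 9 in the shERV line. With the replicate block, 1 member instead of 0 was called in TT-SLAM-seq at 6 h (Aloxe3, −1.05), and no other call of a member changed. Read numbers of 0 to 9 per library limit nascent Alox15 before 24 h.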
